A study of Mus musculus with 46 samples.

Results

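The proteasome genes of mouse microglia were read across Dicer genotype, lipopolysaccharide (LPS) challenge and developmental stage. The members are all gene rows whose symbol starts with Psma, Psmb, Psmc, Psmd or Psme and a number. The interferon-inducible immune subunits Psmb8 and Psmb9 and pseudogene rows were left out by the rule. It found 43 genes in each of the 4 deposited tables, of 19762 gene rows in the first adult table and 24421 in the 3 others. They are 8 Psma, 9 Psmb, 7 Psmc, 14 Psmd and 5 Psme genes. The rule itself uses names only and no measured value, but the members were chosen with earlier results of these data known.

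The proteasome is the barrel-shaped protease that degrades ubiquitin-tagged proteins. Psma genes encode the outer rings that gate its core, and Psmb genes the inner rings with the cutting sites of Psmb5, Psmb6 and Psmb7. Psmc genes encode the ring of ATPases that unfolds and feeds in substrates, and Psmd genes the rest of the cap, which binds ubiquitin and removes it. Psme genes encode alternative activators of the core: Psme1 and Psme2 form an interferon-inducible ring linked to antigen presentation, while Psme3 and Psme4 act mainly in the nucleus. In immune cells interferon also induces Psmb10, which takes the place of Psmb7. Not every matched name is a structural subunit. Psmd5, Psmd9 and Psmd10 are chaperones of cap assembly, and Psmc3ip is a cofactor of meiotic recombination that carries the name of its partner.

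RNA was sequenced in bulk from 46 libraries of sorted microglia, the resident macrophages of the brain. Dicer is the enzyme that makes mature microRNAs. Adult Dicer-deficient mice were Cx3cr1CreER:Dicerfl/- and their controls Cx3cr1CreER:Dicer+/-, all 10 to 12 weeks old, so both genotypes carried the Cre driver and 1 inactive Dicer allele. The driver acts in Cx3cr1-expressing cells once induced, and the time of induction is not given in the sources used here. The first adult table holds 3 Dicer-deficient and 4 control libraries at steady state. The total-brain table holds 4 Dicer-deficient and 4 control libraries 6 h after 1 mg per kg LPS, a bacterial endotoxin, and 3 of each genotype at steady state, which the labels also call PBS. The hippocampus table holds 2 Dicer-deficient and 2 control libraries after the same LPS dose, with 3 Dicer-deficient and 2 control libraries at steady state. The stage table holds Dicerfl/fl controls without Cre, 4 at embryonic day 14 (E14), 5 at birth (P0) and 5 adults of 6 to 8 weeks, and 2 newborn Cx3cr1Cre:Dicerfl/fl libraries, whose Cre needs no induction. Cells were gated as CD45int CD11b+ F4/80+ Ly6C- Ly6G-, except E14 cells, which were gated as CD45+ and F4/80hi.

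Each deposited value, given below as the value of a gene, is a read count multiplied by 1 factor per library, and values are compared within a table only. Libraries held 898451 to 4573063 reads, of which 1217 to 26825 lay on the 43 genes. Sums over genes are given in RPM, their share of the gene reads of a library scaled to 1000000. Microglial markers were high in every library, with 10967 to 42082 RPM for a list of 10 genes. Dicer1 itself was called in none of the 6 genotype comparisons, with limma adjusted p from 0.254 to 1. The reads are not placed within the gene, so this checks neither the deletion nor the labels. In total brain, the library labelled control LPS 33 stood apart from the other LPS libraries: its microglial markers summed to 32582 RPM, against 16283 to 19720 in the 3 other LPS controls and 32890 to 33982 in steady-state controls. The count of members that rose in controls after LPS, the count of the interaction and the changes of Psme3, Psmd14 and Psmc6 are given with and without it. Other values of the control LPS group include it. The newborn library Dicer 1, with 992317 reads the least deeply sequenced of its table, also stood apart, with 484 RPM on Psma genes against 935 in the second Dicer-deficient newborn library and 859 to 1091 in newborn controls.

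The first adult table listed several proteasome genes at or near 0. Psmb3, Psmc5 and Psme2 were at 0 in all 7 libraries. Of 37 members with at least 20 RPM in the adult controls of both the total-brain and the stage table, 10 were lower by more than 10-fold in the controls of the first adult table (27%). The same held for 312 of 6322 genes overall (4.94%). The 10 were Psma7, Psmb2, Psmb3, Psmb5, Psmb6, Psmb10, Psmc2, Psmc3, Psmc5 and Psme2b. Levels in that table are therefore set only against each other. Psme2b is an intronless copy of Psme2: over 794 aligned bases of the GENCODE transcripts they were 99.4% identical, and 68.7% of the 50-base windows of Psme2b also occur in Psme2. Reads of the pair may be split by the counting, and both rows are uncertain one by one. Psmb11, known as a thymus subunit, had 1 read in 46 libraries, and Psma8, known as a testis subunit, had 26 to 126 reads per table.

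The summed level of the 43 genes moved with LPS and with stage and overlapped between genotypes. In total brain the members took 4766 to 5317 RPM in Dicer-deficient libraries after LPS and 3257 to 3876 at steady state. Control libraries held 3562 to 5738 RPM after LPS, with library 33 the lowest and the 3 others from 4559, against 3186 to 3316 at steady state. In the hippocampus they took 4937 and 5088 RPM in Dicer-deficient libraries after LPS and 3530 to 3890 at steady state. Hippocampal controls held 5069 and 5645 RPM after LPS and 3407 and 3863 at steady state. Across stages the sum was 7240 to 7752 RPM at E14, 5315 to 6297 at P0 and 3879 to 4047 in adults, with no overlap between stages. In bulk libraries, fewer cells of a type and less RNA per cell cannot be told apart.

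**Figure D1:**
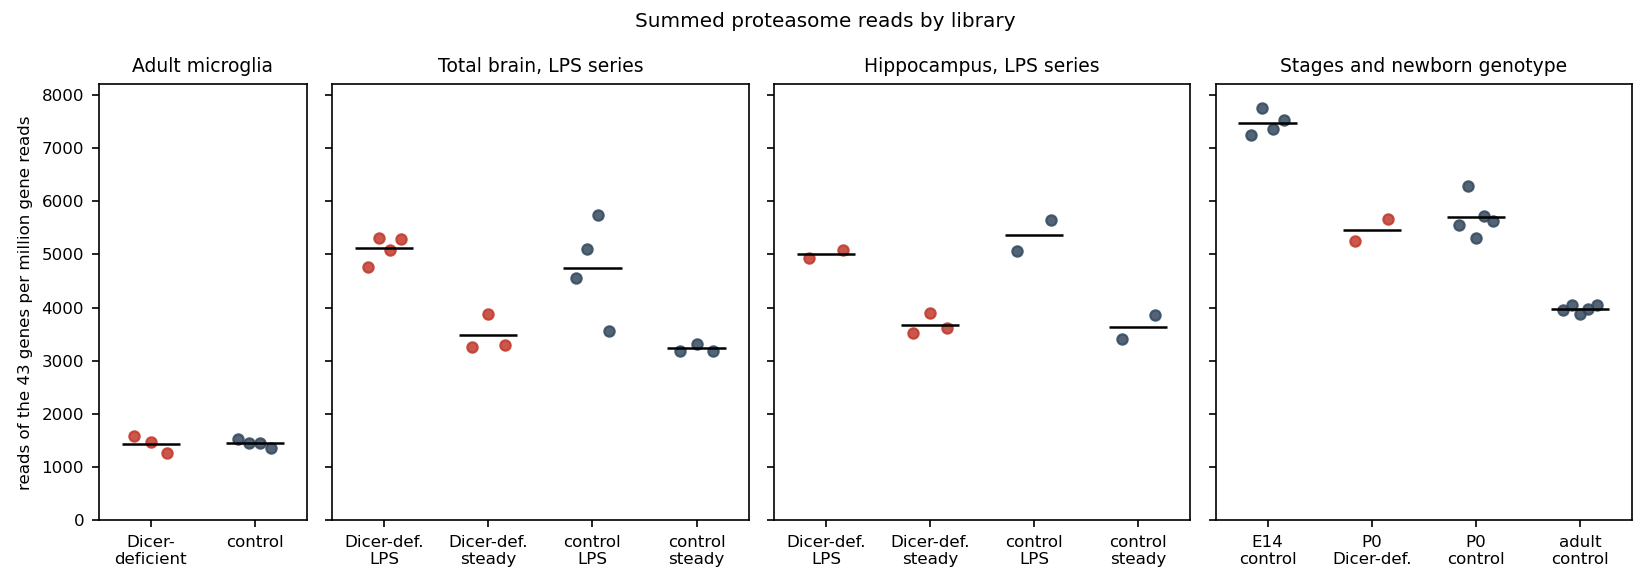
Reads of the 43 proteasome genes in RPM (y axis), 1 point per library, with black lines at group means, Dicer-deficient libraries in red and controls in dark blue. E14 libraries lie highest at 7240 to 7752, and the first adult table lies at 1268 to 1581. Total-brain LPS libraries lie above the steady-state libraries of their own genotype. Control library 33, at 3562, is the lowest LPS library and lies below Dicer-deficient steady-state library 11b at 3876.

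At 6 h after LPS a share of the proteasome genes had risen in total-brain microglia of both genotypes. In Dicer-deficient microglia 15 of 42 tested members rose and 0 fell, where 12.2% of all 13423 tested genes rose and 12.8% fell. Their median log2 fold change was 0.53, against −0.04 over all genes. In control microglia 10 of 42 rose and 0 fell, where 7.05% of all genes rose and 7.08% fell, with a median of 0.26 against −0.05. Without control library 33, 15 members rose in controls and 0 fell, where 12.3% of all genes rose. All changes are on the scale log2(value + 1), and a gene is called at a Benjamini-Hochberg adjusted p under 0.05 over all genes tested. The 2 genotypes shared 8 called members, 53.3% of the 15 and 80% of the 10: Psmb4, Psmb6, Psmc1, Psmc4, Psmc5, Psmd2, Psmd12 and Psme3. The overlap over all called genes was not counted, so these shares cannot be called particular to the members.

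The activators moved unequally. Psme3, the nuclear activator, had values of 204, 247, 199 and 247 in Dicer-deficient libraries after LPS, against 86.8, 134 and 130.4 at steady state. Control libraries had 237, 303.5, 286 and 109.9 after LPS, against 97.4, 83.3 and 85 at steady state. The groups do not overlap in either genotype, and library 33 is the low value among the LPS controls. Psme3 rose by 0.95 (SE 0.28, limma adjusted p = 0.0193) in Dicer-deficient and by 1.30 (SE 0.28, limma adjusted p = 0.00719) in control microglia, and without library 33 the control change was 1.62. Psme1, a subunit of the interferon-inducible ring, had 846, 1299.7, 1146.5 and 1309 after LPS against 604.5, 1010.4 and 712 at steady state in Dicer-deficient microglia. In controls it had 1073, 1122, 1727 and 951 after LPS against 561, 779.6 and 706 at steady state. Its LPS and steady-state libraries overlap in Dicer-deficient microglia and are apart in controls. Psme1 rose in controls, by 0.81 (SE 0.23, limma adjusted p = 0.0286), and its Dicer-deficient difference of 0.58 missed the threshold (limma adjusted p = 0.0791). Its partner Psme2 had 12, 16.1, 18.3 and 27.3 in Dicer-deficient libraries after LPS and 7.7, 6.3 and 7.6 at steady state, a rise of 1.19 (SE 0.38, limma adjusted p = 0.0269). Summed with Psme2b the change was 0.62 and was no longer called (limma adjusted p = 0.0755). Psme2b alone had 699.9, 656, 765 and 909 after LPS against 553, 308 and 708 in Dicer-deficient microglia and was called in neither genotype. Psme4, the second nuclear activator, had 105, 96.6, 81.6 and 93 after LPS against 155, 61.1 and 157 in Dicer-deficient microglia, and its fold changes of −0.29 there and −0.27 in controls were not called.

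In the core particle more calls fell on the inner than on the outer rings. Of 8 Psma genes tested, 1 rose in Dicer-deficient and 0 in control microglia, with medians of 0.07 and 0.02. The 1 was Psma7, at 601, 504, 562 and 547 after LPS against 353, 388 and 329 at steady state, a rise of 0.63 (SE 0.18, limma adjusted p = 0.0136). Of 8 Psmb genes tested, 3 rose in each genotype, with medians of 0.59 in Dicer-deficient and 0.34 in control microglia. Psmb6, the caspase-like cutting site, had 594, 722, 588 and 529.9 in Dicer-deficient libraries after LPS against 297, 522 and 302 at steady state. Control libraries had 488, 666, 698 and 422 after LPS against 332, 329 and 305.5 at steady state. All LPS libraries lay above all steady-state libraries of the same genotype, narrowly so for the Dicer-deficient pair of 529.9 and 522, where 522 is steady-state library 11b. It rose by 0.74 (SE 0.22, limma adjusted p = 0.0183) in Dicer-deficient and by 0.79 (SE 0.22, limma adjusted p = 0.0234) in control microglia. Psmb4, a non-catalytic subunit, rose by 0.65 in Dicer-deficient and 0.69 in control microglia, and Psmb2, also non-catalytic, rose by 0.93 (SE 0.25, limma adjusted p = 0.0215) in controls. The immune subunit Psmb10 had 649.9, 1023, 1023.5 and 1094 in Dicer-deficient libraries after LPS against 496.5, 709.7 and 496 at steady state, with 1 LPS library inside the steady-state range, and rose by 0.73 (SE 0.24, limma adjusted p = 0.0315). In controls it had 523, 634, 1003 and 498 after LPS against 474, 480.2 and 490.5 at steady state, narrowly without overlap, and was not called. The 2 other cutting-site genes were called in neither genotype. Psmb5, the chymotrypsin-like site, had 185, 151, 105 and 139 after LPS and 151, 65.3 and 155 at steady state in Dicer-deficient microglia, where the groups overlap. Psmb7, the trypsin-like site that Psmb10 replaces, had 142, 137, 149.6 and 166 after LPS and 82.9, 168 and 103 at steady state.

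**Figure D2:**
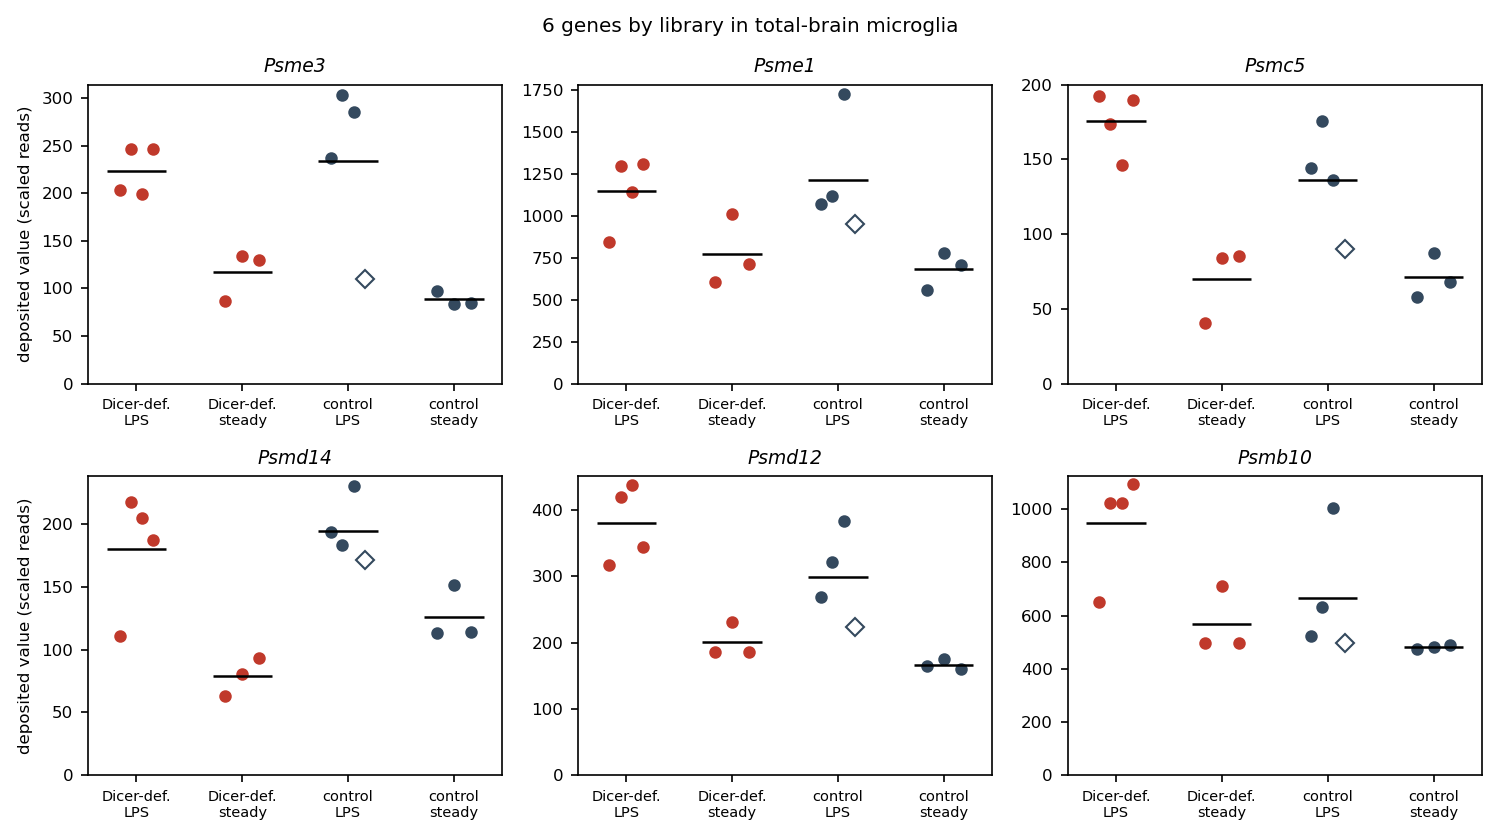
Deposited values (scaled reads, y axis from 0) of 6 genes in each total-brain library, with black lines at group means, Dicer-deficient libraries in red and controls in dark blue. The open diamond is control LPS library 33, which lies nearest to steady state among the LPS controls in all 6 genes, at 109.9 for Psme3 where the other LPS controls lie from 237 to 304.

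Of the 7 Psmc genes, which are the ATPases and Psmc3ip, 3 rose in each genotype. They were the ATPase genes Psmc1, Psmc4 and Psmc5 in both. Psmc5 had 193, 174, 146 and 189.8 in Dicer-deficient libraries after LPS against 40.5, 84.3 and 85.7 at steady state. In controls it had 144.5, 176, 136 and 90.1 after LPS against 57.7, 87.5 and 67.8 at steady state. The groups do not overlap in either genotype, although library 33 lies just above the highest steady-state control. It rose by 1.38 (SE 0.28, limma adjusted p = 0.0014) in Dicer-deficient and by 0.92 (SE 0.28, limma adjusted p = 0.0345) in control microglia. Psmc4 had 245, 332, 417 and 179 in controls after LPS against 147, 129 and 145, a rise of 0.99 (SE 0.25, limma adjusted p = 0.0145). Psmc1 rose by 0.82 in controls and by 0.90 in Dicer-deficient microglia. Psmc6 took values of 55.5, 96.6, 85.7 and 93.5 in Dicer-deficient libraries after LPS against 98.3, 86.4 and 153 at steady state, the lowest fold change of the members there at −0.43, and was not called.

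In the rest of the cap, 6 of 14 Psmd genes rose in Dicer-deficient and 2 in control microglia. Psmd14, the deubiquitinase of the lid, had 111, 218, 205 and 188 in Dicer-deficient libraries after LPS against 62.7, 80.8 and 93.3 at steady state, with no overlap, and rose by 1.15 (SE 0.24, limma adjusted p = 0.00157). In controls it had 194, 183, 230.1 and 171 after LPS against 113.5, 151 and 114 and was not called. Without library 33 its change was 0.68 (limma adjusted p = 0.0477). Psmd12, a lid scaffold subunit, had 318, 420.3, 437.5 and 344.5 in Dicer-deficient libraries after LPS against 186, 230.5 and 186 at steady state. Control libraries had 269, 322, 384 and 224 after LPS against 164.5, 175 and 159.7 at steady state. The groups do not overlap in either genotype, and Psmd12 rose by 0.91 in Dicer-deficient microglia and by 0.82 (SE 0.19, limma adjusted p = 0.0108) in controls. Psmd3, another lid subunit, had 611, 512, 493 and 555 in Dicer-deficient libraries after LPS against 311, 252 and 279, again without overlap, and rose by 0.95 (SE 0.22, limma adjusted p = 0.00349). Psmd7, the partner of Psmd14, rose by 0.97 (SE 0.25, limma adjusted p = 0.00912) in Dicer-deficient microglia, and Psmd4, a ubiquitin receptor, by 0.65 (SE 0.17, limma adjusted p = 0.0102). Psmd2, the base subunit that docks shuttle factors, rose by 0.76 in Dicer-deficient and by 0.68 in control microglia. The assembly chaperones Psmd5, Psmd9 and Psmd10 were called in neither genotype.

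**Figure D3:**
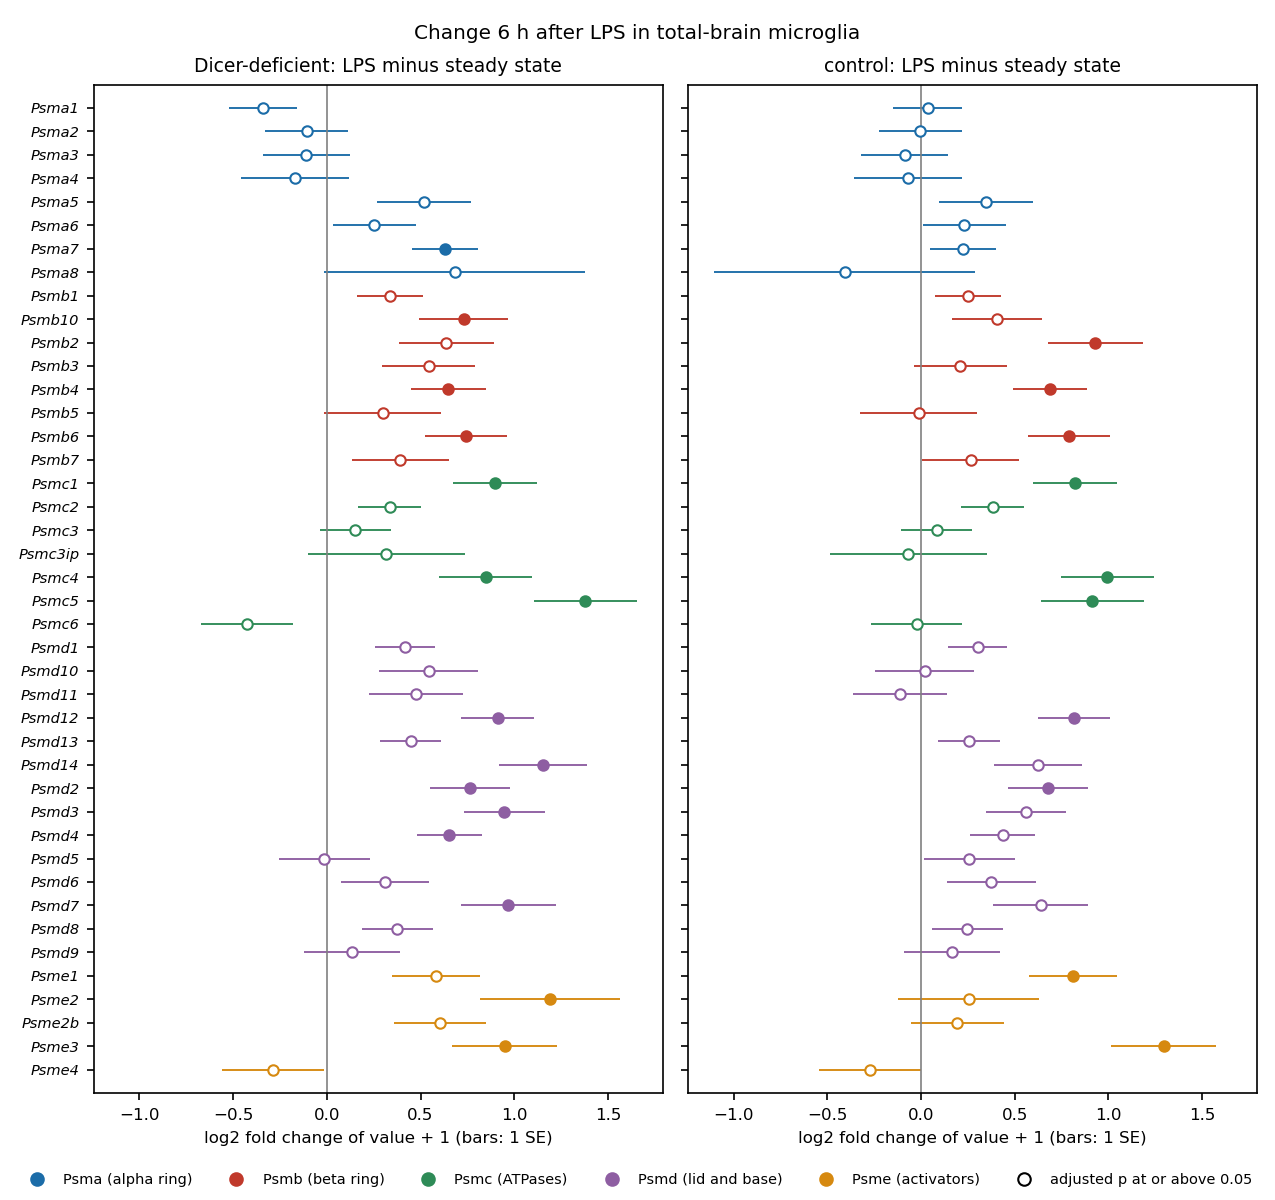
Log2 fold change of value + 1, LPS minus steady state (x axis, bars 1 SE), for the 42 tested members in Dicer-deficient (left) and control (right) total-brain microglia. Filled points are called, 15 on the left and 10 on the right, and the Psma genes lie between −0.34 and 0.68 on the left, where Psma7 is filled, and between −0.41 and 0.35 on the right.

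These counts rested on few libraries. When each library was left out in turn, 8 to 20 members were called in Dicer-deficient and 2 to 15 in control microglia, with 2 called in controls without LPS library 31 or 32 and 8 in Dicer-deficient microglia without steady-state library 5 or 12. Without steady-state library 11b, the highest of its group, 19 rose and 1 fell in Dicer-deficient microglia, the 1 being Psme4 at −0.73 (limma adjusted p = 0.0146). Psmc5, Psmd14 and Psmd3 in Dicer-deficient microglia, and Psme3 and Psmd12 in controls, kept their call in all 7 such fits and under all other settings tried. The difference of the LPS effect between genotypes, tested as an interaction, called 0 of 42, with 0 at an unadjusted p under 0.05 and 0 by edgeR and DESeq2, where 0.171% of all genes were called. Without control library 33 the interaction also called 0 members. Marker lists moved alongside. The 10 microglial markers fell in 7 cases in Dicer-deficient and 6 in control microglia, with sums of 16068 to 19091 RPM after LPS and 33622 to 34225 at steady state in Dicer-deficient libraries. Of 13 monocyte and neutrophil markers, 10 rose and 1 fell in Dicer-deficient microglia, and 8 rose and 2 fell in controls. Their sum was 470.2 to 1625 RPM in Dicer-deficient libraries after LPS and 457 to 539 at steady state, and 236 to 1793 in control LPS libraries, highest in library 33, against 389 to 448 at steady state. Mmp8 and Mmp9 were at 0 in all steady-state libraries, as were Ly6c2, Retnlg and Ltf in controls. Of 6 erythroid markers, 5 rose in Dicer-deficient and 0 in control microglia, with sums of 1184 to 2798 RPM after LPS and 32.9 to 176 at steady state in Dicer-deficient libraries. In controls the sums were 123 to 5356 after LPS and 154 to 926 at steady state. Their part in the proteasome result was not tested.

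Promoters of 5 of the members called after LPS are printed below, and each holds a motif that was searched. They do not stand for all called members, whose motif counts are given first. RefSeq promoters on mouse build GRCm38.p6, 250 bases before to 50 after the first listed gene start, were found for 36 of the 43 members by symbol and for 14 of the 17 called in either genotype. Motifs were searched on both strands. An interferon-response core, GAAA repeated with 2 bases between, was in 4 of 36 member promoters (11.1%), those of Psmb3, Psmd4, Psmd9 and Psme1, against 3.49% of all 27025 promoters. The antioxidant-response core TGANNNNGC, bound by the Nfe2l1 family, was in 52.8% of member promoters against 41.4% of all. CCAAT was in 38.9% against 37.9%, and the gamma-activated site TTCNNNGAA in 2.78%, only that of Psmd2, against 8.47%. In the 14 promoters of members called after LPS, TGANNNNGC was in 5, CCAAT in 5, the interferon-response core in 2 and the gamma-activated site in 1. Capitals below mark that interferon-response core, read as its reverse complement, in the promoters of Psme1 (chr14:55578244-55578543, plus strand) and Psmd4 (chr3:95042565-95042864, minus strand). In those of Psmd12 (chr11:107479278-107479577) and Psmb6 (chr11:70525107-70525406), both on the plus strand, they mark TGANNNNGC, and in that of Psme3 (chr11:101315963-101316262, plus strand) CCAAT, also as its reverse complement. Each line runs 5′ to 3′ on the strand of the gene.
Psme1: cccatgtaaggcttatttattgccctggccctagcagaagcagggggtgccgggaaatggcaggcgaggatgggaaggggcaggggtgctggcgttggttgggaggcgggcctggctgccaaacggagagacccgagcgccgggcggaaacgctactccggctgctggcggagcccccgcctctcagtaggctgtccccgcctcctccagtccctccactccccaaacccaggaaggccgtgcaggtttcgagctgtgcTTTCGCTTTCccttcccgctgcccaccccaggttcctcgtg
Psmd4: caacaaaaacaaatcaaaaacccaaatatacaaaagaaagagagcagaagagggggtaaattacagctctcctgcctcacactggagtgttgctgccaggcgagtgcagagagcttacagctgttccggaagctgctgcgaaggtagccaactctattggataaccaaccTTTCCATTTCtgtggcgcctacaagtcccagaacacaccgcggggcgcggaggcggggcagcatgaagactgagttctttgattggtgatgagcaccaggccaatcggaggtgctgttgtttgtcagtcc
Psmd12: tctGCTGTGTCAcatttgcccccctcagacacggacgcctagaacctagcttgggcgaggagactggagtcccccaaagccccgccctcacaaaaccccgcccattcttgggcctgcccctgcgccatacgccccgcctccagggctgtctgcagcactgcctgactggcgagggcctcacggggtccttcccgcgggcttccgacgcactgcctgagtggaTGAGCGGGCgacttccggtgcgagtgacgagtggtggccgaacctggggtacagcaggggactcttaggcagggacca
Psmb6: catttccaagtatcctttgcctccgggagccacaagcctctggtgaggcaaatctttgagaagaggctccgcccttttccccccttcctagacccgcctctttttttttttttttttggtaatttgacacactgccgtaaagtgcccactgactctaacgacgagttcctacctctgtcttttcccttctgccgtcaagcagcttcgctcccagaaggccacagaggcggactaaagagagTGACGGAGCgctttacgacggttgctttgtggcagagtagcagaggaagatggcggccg
Psme3: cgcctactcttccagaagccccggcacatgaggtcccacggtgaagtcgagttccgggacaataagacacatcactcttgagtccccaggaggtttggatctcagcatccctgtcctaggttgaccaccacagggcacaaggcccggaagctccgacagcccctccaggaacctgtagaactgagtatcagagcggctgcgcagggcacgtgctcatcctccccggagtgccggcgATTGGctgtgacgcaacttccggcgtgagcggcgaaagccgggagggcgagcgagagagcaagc
The Psme1 match lies 10 to 19 bases after the gene start and the Psmd4 match 80 to 71 bases before it. Psmd12 held 2 matches, at −247 to −239 and −28 to −20, and Psmb6 held 1 at −9 to −1, both counted from the gene start. A match is a description of the letters and not a binding site.

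In the hippocampus 1 call was made after the same LPS dose. In Dicer-deficient microglia 1 of 42 tested members rose and 0 fell, where 3.87% of all 12366 tested genes rose and 4.61% fell, and the median was 0.47 against 0.05 over all genes. The 1 was Psme2b, at 795 and 809 after LPS against 431, 513 and 407 at steady state, a rise of 0.84 (SE 0.23, limma adjusted p = 0.0417). The call was lost when any 1 of these 5 libraries was left out, and the sum of Psme2 and Psme2b rose by 0.84 (limma adjusted p = 0.0411). In control microglia 0 of 42 were called by limma, with 5 at an unadjusted p under 0.05, where 5.23% of all genes were called. DESeq2 called 1, Psmb6, edgeR none, and the median was 0.49 against 0.00. Psmb6 had 723.5 and 755 in controls after LPS against 379.8 and 410.1 at steady state. Psme1 had 872 and 1415 in Dicer-deficient libraries after LPS against 685, 802 and 887, and 1282 and 1607 in control libraries against 771 and 895. Psmd12 had 468 and 502 in Dicer-deficient libraries after LPS against 202, 289 and 316. Both LPS values lie above the steady-state range. Psme3 had 94.4 and 179 against 69.8, 67.9 and 75.3 in Dicer-deficient microglia. Psmb10 had 579 and 1082 against 453, 710.1 and 908, with the groups overlapping. Psme1, Psmd12, Psme3 and Psmb10 were called by limma in neither genotype. The median SE of the members was 0.41 and 0.45 in these comparisons, against 0.24 in total brain. The interaction called 0 of 42, with 1 at an unadjusted p under 0.05 and 0 by edgeR and DESeq2, where 0.0162% of all genes were called. Monocyte and neutrophil markers summed to 295 and 404 RPM in Dicer-deficient libraries after LPS and 3232 to 3414 at steady state, and 6 of 12 tested fell and 1 rose. Retnlg, Ltf, Mmp8 and Mmp9 were at 0 in both of these LPS libraries. In controls the sums were 184 and 732 after LPS and 626 and 1254 at steady state, and 0 rose and 1 fell. Microglial markers fell in 7 of 10 cases in Dicer-deficient and 6 in control microglia. Of 8 border-macrophage markers, 4 fell in Dicer-deficient and 2 in control microglia. Their sums were 0.6 and 7.8 RPM in Dicer-deficient libraries after LPS and 119 to 178.5 at steady state, and 2.7 and 14.4 RPM in control libraries after LPS and 121.9 and 188.1 at steady state. Cd163, Lyve1 and Cd209f were at 0 in all 4 LPS libraries. The part of these cells was not tested.

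No proteasome gene was called between Dicer genotypes in any of the 5 adult comparisons. In the first adult table limma called 0 of 39 tested members, with 4 at an unadjusted p under 0.05 and 0 by edgeR and DESeq2, where 5.15% of all 11045 tested genes were called. The median was 0.08, against 0.05 over all genes. Among the tested members Psmb10, Psmb2, Psme2b, Psmc3 and Psmb5 had at most 4, 5, 6, 7 and 8 reads in a library of that table. In total brain at steady state 0 of 42 were called, with 1 at an unadjusted p under 0.05, where 2.18% of all genes were called, and the median was 0.04 against −0.10. After LPS 0 of 42 were called, with 5 at an unadjusted p under 0.05, where 9.4% of all 12937 tested genes were called, and the median was 0.12 against −0.10. In the hippocampus 0 of 42 were called at steady state and 0 after LPS, with 1 and 0 at an unadjusted p under 0.05, where 0.17% and 0.307% of all genes were called. The medians there were −0.09 and −0.01, against −0.08 and −0.05. In total brain and hippocampus edgeR and DESeq2 also called 0 members in each of these comparisons.

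In total brain after LPS, Psmb10 had the highest and Psmc6 the lowest difference between genotypes. Psmb10 had 649.9, 1023, 1023.5 and 1094 in Dicer-deficient libraries against 523, 634, 1003 and 498 in control libraries. The highest control, library 32, lies within the Dicer-deficient range, and the difference of 0.54 was not called (limma adjusted p = 0.139). Without that library it was 0.76 and called, with an adjusted p of 0.0263. Psmc6 had 55.5, 96.6, 85.7 and 93.5 in Dicer-deficient libraries against 151, 146, 118 and 100 in controls. All Dicer-deficient values lie below all controls, and the difference of −0.64 was not called (limma adjusted p = 0.0873). Without library 33 it was −0.76 with an adjusted p of 0.0478. At steady state Psmc6 had 98.3, 86.4 and 153 in Dicer-deficient libraries and 124, 126 and 138 in controls, which overlap. In the first adult table it had 337, 263 and 158 in Dicer-deficient libraries and 351, 431, 359.8 and 421 in controls, with the groups apart and a difference of −0.69 (limma adjusted p = 0.112). Psme1 had 567.5, 622 and 997 in Dicer-deficient libraries of that table and 688, 654, 682 and 585.5 in controls, and Psme3 192, 143 and 107 and 178, 195, 172 and 103. For Psmd14, total brain at steady state had 62.7, 80.8 and 93.3 in Dicer-deficient libraries and 113.5, 151 and 114 in controls, a difference of −0.68 that was not called (limma adjusted p = 0.188). Over the 8 activators and cutting-site genes followed throughout, differences lay between −0.75 and 0.38 at steady state and −0.10 and 0.54 after LPS in total brain.

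**Figure D4:**
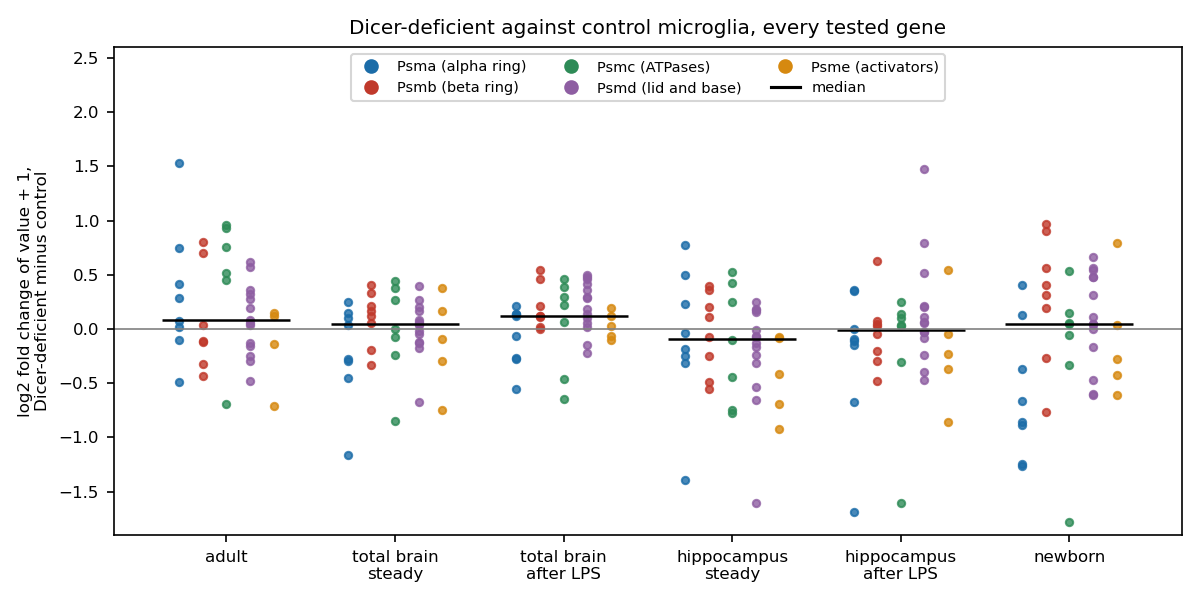
Log2 fold change of value + 1, Dicer-deficient minus control (y axis), for every tested member in the 6 genotype comparisons, coloured by subunit class, with black lines at the medians. The medians lie between −0.09 and 0.12, and single genes reach −1.78 and 1.53 without a call.

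Newborn Dicer-deficient microglia gave 0 called members of 42, with 6 at an unadjusted p under 0.05, where 1.48% of all 13064 tested genes were called. The 2 Dicer-deficient libraries disagreed. Psma1 had 107 and 305.5 in Dicer-deficient libraries and 266, 413 and 339.8 in controls. Psmb6 had 1063 and 476 in Dicer-deficient libraries and 603, 608 and 513 in controls. Psmb5 had 278 and 79.6 and 106, 106 and 90.5, and Psmb7 had 72.8 and 216.5 and 218, 233 and 196. In each of these 4 genes library Dicer 1 lies outside the control range on one side or the other, while library Dicer 2 lies inside it for Psma1 and Psmb7 and below it for Psmb6 and Psmb5. With Dicer 1 as the only Dicer-deficient library, 14 members were called higher and 9 lower, and with Dicer 2 alone 0 were higher and 1 lower. The 1 was Psmc3ip, at 10.4 and 9.36 in Dicer-deficient libraries and 27.6, 36.7 and 47.1 in controls, with both below all controls and a difference of −1.78 (SE 0.42, limma adjusted p = 0.0746). edgeR called it at −1.98 (adjusted p = 0.0388). Psmb10 had 866 and 499 in Dicer-deficient libraries and 327, 355 and 322 in controls, again apart, with a difference of 0.97 (SE 0.30, limma adjusted p = 0.13), and DESeq2 called it at 0.99 (adjusted p = 0.0384). Psme1 had 1302 and 699.9 and 629.5, 571 and 464, and Psme3 had 78 and 86.6 and 132, 150 and 99.6, both apart, Psme1 above and Psme3 below the controls, and neither called. Dividing-cell markers summed to 575 and 711 RPM in Dicer-deficient libraries and to 1002 to 1168 in the 3 controls, with 0 of 10 called and none at 0. Their part was not tested.

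Across stages nearly all called changes were falls at the later stage. In adults against E14, 34 of 42 tested members fell and 0 rose, where 30.8% of all 13824 tested genes fell and 20.4% rose. The median was −0.80, against −0.13 over all genes. In adults against P0 27 fell and 1 rose, where 24% of all 13447 tested genes fell and 19.2% rose, with a median of −0.59 against −0.08. In P0 against E14 13 fell and 0 rose, where 14.4% of all genes fell and 8.29% rose, with a median of −0.37 against −0.11. The 3 comparisons share their stage groups and are not independent of each other. In adults against E14 the falls took in 5 of 8 Psma, 7 of 8 Psmb, 7 of 7 Psmc, 11 of 14 Psmd and 4 of 5 Psme genes, with medians of −0.995, −1.20, −0.87, −0.72 and −0.54.

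In the core, Psma1 had 545.5, 532, 634 and 684 at E14, 266, 413, 339.8, 347.5 and 355 at P0 and 149, 102, 134, 152 and 197.5 in adults, with no overlap between stages. Its change was −0.80 (SE 0.23, limma adjusted p = 0.015) in P0 against E14 and −1.24 (SE 0.22, limma adjusted p = 7.82e-05) in adults against P0. Psma2 had 377, 462, 451.5 and 430 at E14, 260.2, 355, 309, 318 and 307 at P0 and 162, 169, 137, 143 and 172 in adults, also without overlap, and fell in adults against E14 by 1.45 on the log2 scale. Psma5 had 281, 319, 266.5 and 277 at E14, 173, 165, 158, 149 and 132 at P0 and 123, 125, 88, 102 and 116 in adults, and the change in P0 against E14 was −0.88 (SE 0.20, limma adjusted p = 0.00359). Psma3 did not follow the others. It had 80.2, 58.8, 83.5 and 73.1 at E14, 43.6, 53.5, 46.4, 57.2 and 46.7 at P0 and 87.6, 71.9, 69, 66 and 85.7 in adults, a change of −0.56 (SE 0.20, limma adjusted p = 0.0448) at P0 against E14 and of 0.61 (SE 0.19, limma adjusted p = 0.012) in adults against P0. Its fall at P0 was called in 2 of 9 fits that left out 1 library, and its rise in adults in all 10. Psma4 had 138, 106, 147 and 159 at E14, 94.5, 128, 95.8, 88.5 and 104 at P0 and 51, 26.3, 148, 129 and 144 in adults, where libraries 1 and 2 were low and the 3 others within the E14 range, and was not called. Psmb3 followed the majority. Psmb3 had 129, 129.5, 156 and 143 at E14, 116, 97.7, 73.7, 114 and 71.2 at P0 and 54.6, 69.3, 31.1, 39.6 and 31.2 in adults, and fell in adults against P0, with a change of −1.09 (SE 0.24, limma adjusted p = 0.000728). The cutting-site gene Psmb6 had 566, 883, 676 and 729.8 at E14, 603, 608, 513, 530.4 and 611 at P0 and 290, 389.5, 209.7, 241 and 265 in adults, with adults below all others, and its change in adults against E14 was −1.37 (SE 0.20, limma adjusted p = 9.25e-06). Psmb7 had 212, 289.7, 240 and 234 at E14, 218, 233, 196, 202 and 237 at P0 and 104, 81.6, 128, 130 and 145 in adults, with the drop after P0 (−0.90). Psmb5 had 133, 162, 164 and 121 at E14, 106, 106, 90.5, 109 and 118 at P0 and 76.8, 51.8, 103.5, 103 and 116 in adults. Its change in adults against E14 was −0.72 (SE 0.27, limma adjusted p = 0.0283), and the call was lost without adult library 1 or 2 or E14 library 2 or 3. The immune subunit Psmb10 had 472, 478, 519 and 456 at E14, 327, 355, 322, 350.5 and 333 at P0 and 431, 564, 311.5, 321 and 362 in adults, with P0 below all E14 libraries, and it fell at P0 by 0.51 on the log2 scale (limma adjusted p = 0.0371, lost in all 9 fits without 1 library). Adult libraries overlapped both earlier stages. The split of the adult libraries was not particular to Psma4. Adult libraries 1 and 2 also lay below the 3 others in Psma6, Psmb5, Psmb7, Psmc5, Psmc6, Psmd1, Psmd3, Psme2, Psme2b and Psme4. They lay above the 3 others in Psma5, Psma7, Psmb2, Psmb3, Psmb4, Psmb6 and Psmb10. The same held for Psmc1 to Psmc4, Psmc3ip, Psmd2, Psmd6, Psmd8, Psmd9, Psme1 and Psme3. In Psma1, Psma2 and Psma3 libraries 1 and 2 did not separate from the others. Adult means of the split genes join both sets of libraries, and the cause of the split was not tested.

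Further genes that fell at P0 against E14 did so by 0.60 for Psma7, 0.57 for Psmb2, 0.57 for Psmd2, 0.55 for Psmb4, 0.48 for Psme2b, 0.47 for Psmd14 and 0.34 for Psmb1 on the log2 scale. Psmb2 and Psmd14 kept the call in 0 of 9 fits that left out 1 library, Psmb1 and Psme2b in 1, and Psma7 and Psmb4 in all 9. The smallest called falls in adults against P0 were those of Psmd12 (−0.38), Psma5 (−0.49, called in 3 of 10 such fits), Psmd6 (−0.50), Psmc3 (−0.52) and Psmd2 (−0.52). In adults against E14 they were those of Psmc2 (−0.51), Psme4 (−0.52), Psme2, Psmd3 (−0.60), Psmd12 (−0.62) and Psmd8 (−0.65). The call of Psme4 there was lost with edgeR (TMM and RLE) and DESeq2 and was kept in 4 of 9 fits that left out 1 library.

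All 6 ATPases of the ring fell in adults against E14, by between 0.51 for Psmc2 and 1.04 for Psmc1 on the log2 scale. Psmc1 had 482, 466, 506 and 519 at E14, 366, 375, 331, 374 and 402 at P0 and 271, 261, 257, 210.3 and 207 in adults, with no overlap between stages. Psmc3ip, which is no subunit, had the largest fall of the 43: 37.9, 49.4, 51.2 and 49.5 at E14, 27.6, 36.7, 47.1, 28.9 and 26.9 at P0 and 12.9, 8.77, 8.63, 6.09 and 7.06 in adults, with a change in adults against P0 of −1.84 (SE 0.24, limma adjusted p = 3.26e-06). In the cap, Psmd14 had 333, 300.1, 325 and 304 at E14, 219.5, 236.5, 201, 234 and 251 at P0 and 137, 133, 122, 135 and 95.7 in adults, again without overlap, and its change in adults against E14 was −1.34 (SE 0.16, limma adjusted p = 6.5e-07). The later drop is seen in Psmd1, a base scaffold, with 479, 541, 438 and 468 at E14, 475, 464, 457, 393.5 and 435.5 at P0 and 229.7, 240.4, 248.5, 267 and 259 in adults, and a change in adults against P0 of −0.83 (SE 0.12, limma adjusted p = 4.66e-06). Psmd9, an assembly chaperone, had 58.7, 84.8, 78.7 and 85.8 at E14, 64, 82.8, 73.7, 85 and 84.1 at P0 and 51.7, 42.1, 35.4, 36.6 and 33.3 in adults, a change in adults against P0 of −0.96 (SE 0.20, limma adjusted p = 0.000498). The chaperones Psmd5 and Psmd10 fell at P0 against E14, by 0.79 and 0.63 on the log2 scale (limma adjusted p = 0.00787 and 0.015). Psmd11, a lid subunit with 72.6, 113, 78.7 and 93.2 at E14, 65.4, 74.7, 73.7, 69 and 65.4 at P0 and 73.2, 95.6, 74.2, 87.4 and 80.6 in adults, overlapped between all stages and was not called.

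The activators had the median nearest to 0. Psme3 had 154, 134, 156 and 154 at E14, 132, 150, 99.6, 119 and 124 at P0 and 94.8, 79.8, 67.3, 76.2 and 68.5 in adults, with adults below all others, and its change in adults against P0 was −0.68 (SE 0.14, limma adjusted p = 0.00059). Psme1 had 794, 816.5, 706 and 841.5 at E14, 629.5, 571, 464, 624 and 541 at P0 and 552, 676, 397, 435 and 492 in adults, where E14 lies above both later stages, and changed by −0.65 (SE 0.18, limma adjusted p = 0.00441) in adults against E14. Psme4 had 146.5, 113, 135 and 136 at E14, 137, 170.5, 147, 115 and 199.7 at P0 and 66, 65.8, 113, 117 and 114 in adults. It changed by −0.71 (SE 0.19, limma adjusted p = 0.00402) in adults against P0, with adult library 4 just above the lowest P0 library. Psme2 had 60.6, 56.7, 81.6 and 66.8 at E14, 50.9, 67.8, 52.4, 54.9 and 45.5 at P0 and 37.3, 41.2, 52.6, 54.9 and 41.3 in adults, a change in adults against E14 of −0.54 (SE 0.19, limma adjusted p = 0.0195) that was not called when summed with Psme2b (limma adjusted p = 0.0733).

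**Figure D5:**
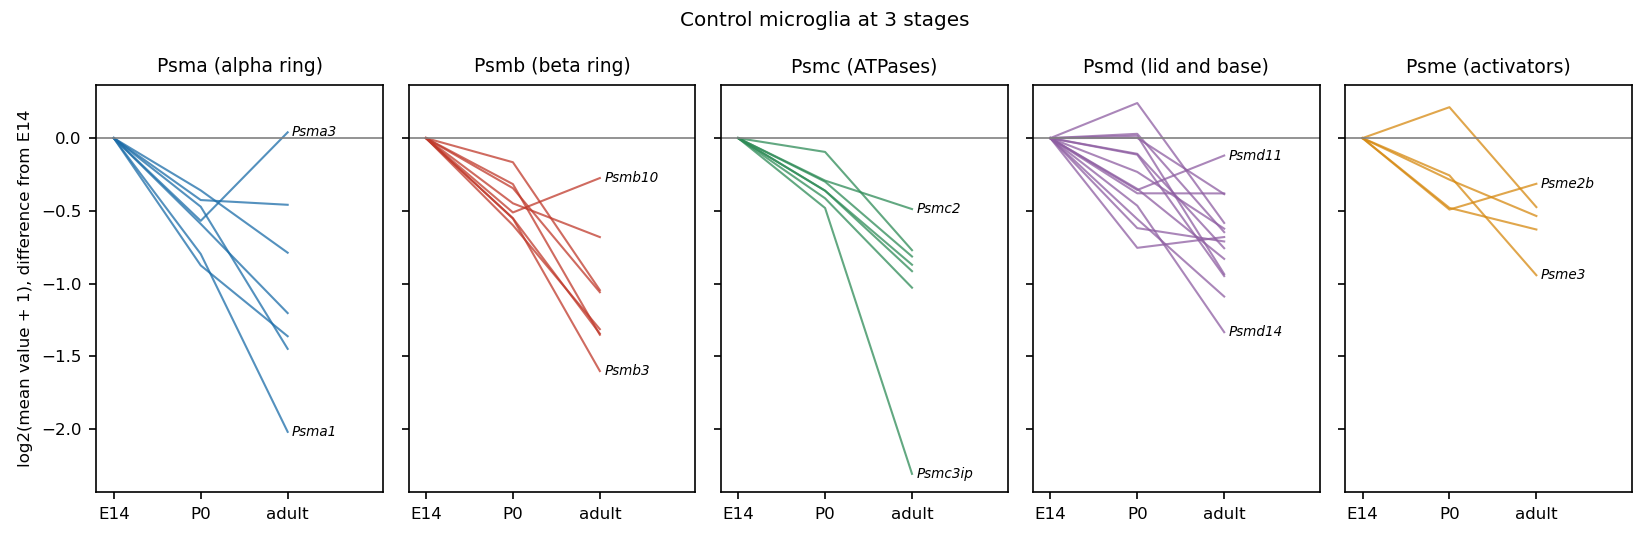
Difference of log2(mean value + 1) from E14 (y axis) at E14, P0 and in adults for control microglia, 1 line per tested member other than Psma8, in 5 panels by subunit class, with the lowest and highest adult lines named. Nearly all adult ends lie below 0, Psma1 and Psmc3ip lowest, and Psma3 turns up after P0 to its E14 level.

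The counts at birth moved more than those in adults. Leaving out 1 library at a time gave 31 to 34 called members in adults against E14, 26 to 31 in adults against P0 and 6 to 9 in P0 against E14, each below the 13 with all libraries. edgeR with TMM scaling called 7 in P0 against E14 and moved the median of all genes in adults against E14 to 0.02. Psma1, Psma5, Psma7, Psmb4, Psmd5 and Psmd10 kept their fall at P0 in all fits tried. Cell markers moved with stage. All 10 dividing-cell markers fell in adults against P0, with sums of 1376 to 1762 RPM at E14, 795 to 1168 at P0 and 26.5 to 53.8 in adults. None was at 0 in all adults. Microglial markers summed to 13641 to 16446 RPM at E14, 15203 to 20946 at P0 and 30108 to 36608 in adults, and 8 of 10 rose and 1 fell in adults against E14. Erythroid markers summed to 271 to 465 RPM at E14, 6280 to 25454 at P0 and 23.1 to 914 in adults. Border-macrophage markers summed to 271 to 418, 427 to 628 and 11.2 to 50.8 RPM at the 3 stages. Neuron markers summed to 84 to 257.5 RPM at E14, 25.5 to 47.1 at P0 and 5.8 to 13.7 in adults. Of 6, 5 fell at P0 against E14, 5 in adults against E14 and 3 in adults against P0. The sort gate also differed at E14. Their part in the result was not tested.

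Other genes of the pathway were followed with 2 lists, chosen like the members with earlier results known. Genes named are called ones among the 3 smallest p of their list in a comparison. A gene named in 1 genotype may also have moved in the other. Of 35 tested genes for assembly factors, ubiquitin receptors, deubiquitinases and regulators, 5 rose and 1 fell after LPS in Dicer-deficient total brain, and 3 rose and 1 fell in controls. Of all tested genes 12.2% rose and 12.8% fell in Dicer-deficient microglia and 7.05% rose and 7.08% fell in controls, so the counts of rises lie near that share. Nfe2l1, the transcription factor that drives proteasome genes when activity is short, rose in controls by 0.89 (SE 0.25, limma adjusted p = 0.0236), at 237 ± 72.2 after LPS against 123 ± 21.4 (SD, n = 4 and 3). Ddi2, the protease that activates it, rose in controls by 1.41 (SE 0.32, limma adjusted p = 0.00849). In Dicer-deficient microglia Nfe2l1 had 264 ± 42.4 after LPS against 146 ± 19.3, and Ddi2 91.3 ± 19.3 against 58 ± 13 (SD, n = 4 and 3). Zfand5, a proteasome-binding activator, rose in Dicer-deficient microglia by 1.63 (SE 0.38, limma adjusted p = 0.00419), and Nploc4, a cofactor of the unfoldase Vcp, by 1.00 (SE 0.24, limma adjusted p = 0.00494). In controls Zfand5 had 700 ± 291 after LPS against 419 ± 97.2, and Nploc4 105 ± 19.6 against 78.9 ± 11 (SD, n = 4 and 3). Akirin2, which carries proteasomes into the nucleus, fell by 1.34 on the log2 scale in Dicer-deficient microglia (limma adjusted p = 0.000757) and by 0.94 in controls (limma adjusted p = 0.0193). In Dicer-deficient microglia it had 149 ± 10.5 after LPS against 382 ± 78.1 at steady state (SD, n = 4 and 3). In adults against E14, 14 of the 35 fell and 3 rose, where 30.8% of all genes fell and 20.4% rose. Shfm1, a small lid subunit, was among those that fell, at 122 ± 22 in adults against 402 ± 43.3 at E14 (SD, n = 5 and 4). Between genotypes the list gave 1 call in 5 adult comparisons and 0 in newborns. The 1 was Uchl5, a deubiquitinase of the cap, in total brain after LPS, where 9.4% of all genes were called. It was lower in Dicer-deficient than in control microglia by 0.75 on the log2 scale (limma adjusted p = 0.0219). Uchl5 had 69.4 ± 13.9 after LPS against 75.1 ± 6.01 at steady state in Dicer-deficient microglia. In controls it had 116.5 ± 12.4 against 71.1 ± 8.87 (SD, n = 4 and 3 in each genotype).

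The second list held 17 genes for loading peptides onto class I molecules and their regulators. After LPS 7 rose and 1 fell in Dicer-deficient total brain, and 5 rose and 1 fell in controls, where 12.2% and 7.05% of all genes rose. Tapbpl, a peptide editor, rose by 1.36 in Dicer-deficient microglia (SE 0.21, limma adjusted p = 0.000214), at 208 ± 14.3 after LPS against 81.7 ± 18.5 (SD, n = 4 and 3). In controls Tapbpl had 109 ± 26.6 against 88.5 ± 4.39. Nlrc5, a transactivator of class I genes, rose by 3.64 in Dicer-deficient microglia (SE 0.61, limma adjusted p = 0.000369) and by 2.50 in controls (limma adjusted p = 0.0133). Tap1, a peptide transporter, rose by 1.48 in Dicer-deficient microglia (limma adjusted p = 0.00184), and H2-K1, a class I heavy chain, by 1.62 in controls (limma adjusted p = 0.0132). Means of the other genotype were also higher after LPS. Tap1 had 544 ± 278 against 226 ± 5.92 in controls, and H2-K1 4679 ± 1200 against 1469 ± 1130 in Dicer-deficient microglia (SD, n = 4 and 3). In adults against P0 12 of the 17 rose and 0 fell, where 19.2% of all genes rose and 24% fell, and 27 of 42 proteasome members fell in the same comparison. Tap2 had 236 ± 45 in adults against 96.1 ± 12.6 at P0 (SD, n = 5 each), a rise of 1.28 (SE 0.18, limma adjusted p = 7.52e-06). Tapbp, the bridge to the transporter, had 724 ± 132 against 325 ± 59.5. Between genotypes 4 rose and 2 fell in total brain after LPS, where 9.4% of all genes were called, and 1 rose and 2 fell in the first adult table, where 5.15% were called. The other 4 comparisons gave 0 calls. After LPS these included Ifngr2, an interferon-gamma receptor chain, higher by 1.09 in Dicer-deficient microglia (SE 0.15, limma adjusted p = 0.000301), and Irf8, lower by 0.93 (SE 0.20).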

How the data were processed

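RNA of sorted mouse microglia was captured with oligo(dT) and sequenced, per the labels' protocols. The submitters' processing notes name HISAT 0.1.5, HOMER, SAMtools, bcl2fastq, DESeq2 and the mm9 build, without role or order. The authors deposited 4 tables of signal: each value is a read count times 1 factor per library, and 100% of values came out whole (within 0.1 read) when divided by it. The count model foreseen for deposited counts was therefore run on these reads as an alternative. Depth is 898451 to 4573063 reads per library.

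The main test was limma 3.58.1 with a trended prior (R 4.3.3) on log2(value + 1), with 1 mean per group and 1 fit per table, after dropping genes that did not reach 1 in enough libraries to fill the smallest group compared. Newborn genotypes were fitted on their own 5 libraries, the 2 Dicer-deficient and controls 1 to 3. Benjamini-Hochberg adjustment ran over all genes tested, with a threshold of 0.05. The fold change understates that of low genes. Alternatives were pseudocounts of 0.1 and 5, no filter, edgeR 4.0.16 (TMM, RLE), DESeq2 1.42.0, only the groups compared, a replicate block, all 5 newborn controls, each library left out and, added after seeing the data, Psme2 and Psme2b summed. Leaving out 1 of 2 libraries assumes that the lone one varies like the other groups. The labels do not say that libraries are separate animals, so p-values measure the spread between libraries.

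The members and the gene lists were chosen with earlier results of these data known. Genes named in a comparison were all called members, or the 6 highest and 6 lowest of over 12, and 8 followed throughout (Psme1 to Psme4, Psmb5, Psmb6, Psmb7, Psmb10). Other members were chosen after their values were seen. The fits were tested on simulated data. Within the first adult table and the stage table, deviations of same-numbered libraries correlated by −0.21 to 0.236. Medians for other numbers lay between −0.149 and 0.016. In newborns the same-number values were 0.145 and 0.236, against −0.149. With 2 libraries in a group this check cannot decide whether the numbers pair libraries.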

Additional observations from a re-analysis of the deposited data

Results flagged for a closer look

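Of 243 groups of 4 or 5 libraries tested, over 35 genes and the summed levels, 12 (4.94%) held 1 library whose gap to the others was above Dixon's critical value, and chance gives about 1 in 20. E14 library 2 was high for Psmb2 (245.0, others 157.7 to 162.9) and Psmd8 (446.7, others 341.6 to 354.0) and low for Psme3 (134.2, others 154.1 to 155.6), and E14 library 1 was low for Psmc3ip (37.9, others 49.4 to 51.2). Dicer-deficient LPS library 35 of total brain was low for Psmb10 (649.9, others 1022.7 to 1093.8) and high for Psmd4 (549.0, others 440.5 to 458.8). Control LPS library 33 was low for Psmc2 (445.7, others 526.7 to 537.6).

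In the first adult table control library 1 had 0 for Psmb2, where the others had 10.3 to 12.0, and control library 3 had 26.9 for Psmd2, where the others had 66.8 to 69.3. In the stage table adult library 4 had 393.1 for Psmb1 (others 419.4 to 429.8), adult library 5 had 51.4 for Psmd2 (others 67.0 to 72.8), and P0 library 2 had 1091 RPM for the Psma genes (others 859 to 923).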

How the results depend on the processing

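No called value changed direction under any alternative. Counts of called members that moved by over 1.5 times were as follows, the cause not tested unless fewer libraries were fitted. In total brain, LPS in controls gave 5 when fitted on the groups compared only (10 otherwise) and 2 to 15 without 1 library, LPS in Dicer-deficient microglia gave 8 to 20, and genotype after LPS gave 0 to 1. In the hippocampus, LPS in controls gave 1 with DESeq2 (0 otherwise), and LPS in Dicer-deficient microglia gave 0 with edgeR RLE, 0 with only the groups compared and 0 without any 1 library (1 otherwise). P0 against E14 gave 7 with edgeR TMM, 24 with only the groups compared and 6 to 9 without 1 library (13 otherwise). Newborn genotype gave 1 with edgeR TMM (Psmc3ip), 1 with edgeR RLE (Psmc3ip), 1 with DESeq2 (Psmb10), 3 with all 5 controls (Psma5, Psmb10, Psmc3ip) and 0 to 23 without 1 library (0 otherwise).

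Median log2 fold changes of the members moved with edgeR TMM to −0.29 in P0 against E14 and −0.675 in adults against E14. Without 1 library they ran from −0.019 to 0.325 for genotype in the first adult table, from 0.029 to 0.204 for genotype in total brain after LPS, from 0.202 to 0.389 for LPS in total-brain controls, from 0.008 to 0.198 for the total-brain interaction, from −0.04 to 0.06 for genotype in total brain at steady state, from −0.005 to 0.114 for newborn genotype, from −0.269 to 0.105 and from −0.107 to 0.08 for genotype in the hippocampus at steady state and after LPS, from 0.426 to 0.695 for LPS in Dicer-deficient hippocampus, and from −0.108 to 0.247 for the hippocampal interaction.

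Same-numbered libraries within the first adult table or the stage table were not paired in the main fits, and whether they belong together was not settled. With the replicate number as a block, P0 against E14 called 7 members, adults against P0 28, adults against E14 34, newborn genotype 1 (Psma5), and for genotype in the first adult table it called 0. Library numbers are not shared between groups within the brain table or within the hippocampus table. Number 5 occurs in the Dicer-deficient steady-state groups of both tables, and the labels do not say whether these libraries share an animal. Depth limits Psma8, with at most 27 reads in a library, and Psmb11, and the 2 or 3 libraries per hippocampal group limit the precision there. Low read numbers also limit Psmb10, Psmb2, Psme2b, Psmc3 and Psmb5 in the first adult table, with at most 4 to 8 reads in a library.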
